A study of Mus musculus with 24 samples.

Results

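The genes described here are 10 cyclic nucleotide phosphodiesterases of the neonatal mouse hippocampus: Pde1a, Pde1b, Pde1c, Pde2a, Pde4a, Pde4b, Pde4d, Pde7b, Pde8b and Pde10a. They were chosen by name, and every non-control array probe carrying 1 of these names was taken, which gave 19 of 55681 probes. Of these 19 probes, 18 were well above background on all 15 arrays, and the remaining Pde10a probe was well above background on 0 arrays.

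Hippocampal mRNA came from male C57BL/6 pups killed on P9 and was hybridized to 1-colour arrays, with a different pup on each array and both hippocampi of a pup pooled. The 5 control arrays (Con) were from untreated littermates with minimal handling. The 5 MS2 arrays and the 5 MS5 arrays were from pups given subcutaneous morphine at 2 or 5 mg/kg, respectively, from P5 onward, together with repeated maternal separation and episodes of apnea. Stress was shared by both morphine groups and by no control, so morphine and stress cannot be told apart in a contrast with Con.

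Phosphodiesterases hydrolyse cAMP and cGMP and so end the signals that adenylyl and guanylyl cyclases start. Opioid receptors couple to inhibitory G proteins that lower cAMP synthesis, which places these enzymes at the other end of the same pool. Families differ in substrate and control: PDE1 is activated by calcium and calmodulin, PDE2 by cGMP, PDE4 is specific for cAMP and blocked by rolipram, PDE7 and PDE8 are specific for cAMP and not blocked by rolipram, and PDE10 acts on both nucleotides. In adult brain Pde10a, Pde1b and Pde7b are known for high expression in the medium spiny neurons of the striatum, whereas Pde1a and Pde2a are abundant in hippocampal and cortical projection neurons.

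Values are background-adjusted, quantile-normalized log2 intensities. A value can be compared between arrays for 1 probe and not between probes. Where the 5 values of a group are listed, they are in the order replicates 15, 16, 17, 18 and 19 for Con, 1, 3, 4, 5 and 7 for MS2, and 8, 9, 12, 13 and 14 for MS5. The leading probe of a gene was the one well above background on most arrays and, among equals, the one with the highest mean. With several probes, probe 1 is the leading probe and the others follow by probe name. The probes of Pde7b and Pde1c and probe 2 of Pde4b had low means over the 15 arrays, from 6.61 to 7.47. The Pde10a probe that was not above background had a mean of 5.88. The offset of 50 in the background adjustment narrows log2 differences most at such dim probes, so the size of their differences can be understated.

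Some arrays stood apart before any group was compared. The array of MS2 replicate 4 carried the lowest level of the 18 hippocampal principal neuron markers, with a list mean of 10.39 against 12.25 to 12.77 on the other arrays. On it Neurod2, a transcription factor of glutamatergic neurons, was 10.59 against 13.49 to 14.46 elsewhere, and Pmch, a hypothalamic neuropeptide precursor, was 13.33 against 5.99 to 7.55. The mean of 13 striatal markers was 11.79 to 12.77 on Con replicate 19, MS2 replicate 5 and MS5 replicates 8, 12 and 14, and 10.21 to 10.69 on the remaining 10 arrays. Xist, chosen after its values were seen, was 11.34 on MS5 replicate 9, although labelled male, and 5.89 to 6.08 on the other arrays. MS2 replicate 5 was the dimmest array, with 67.1% of spots well above background against 72.5% to 79% on the others. In bulk tissue, fewer cells of a type and less RNA per cell cannot be told apart.

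Sequences of 4 probes are shown, the Pde4b and Pde4d probes because their place in the message matters for reading the PDE4 results below, and the Pde1a probe because this gene rests on it alone. Capitals mark the first ATG of the Pde4b probe 2 and the stop codons that close the reading frame of the Pde4b probe 3 and the Pde4d probe 2. The Pde4b probes 2 and 3 therefore read opposite ends of Pde4b coding sequence, the first at the start of a long form and the second at the end shared by the forms, by background knowledge of the protein. The probe sequences are those of the scanner files, whose coordinates are on mm9.
Pde1a, chr2:79705201-79705260, minus strand: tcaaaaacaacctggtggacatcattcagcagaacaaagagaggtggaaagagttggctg
Pde4b probe 2, within chr4:101927825-101927884, plus strand: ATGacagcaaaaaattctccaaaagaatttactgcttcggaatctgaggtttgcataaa
Pde4b probe 3, within chr4:102277888-102277947, plus strand: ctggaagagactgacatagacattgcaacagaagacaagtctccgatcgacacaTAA
Pde4d probe 2, chr13:110741493-110741552, plus strand: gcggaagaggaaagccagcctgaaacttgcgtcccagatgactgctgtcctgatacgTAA

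The first question was whether any phosphodiesterase differed between the treated groups and Con. In limma's test with Benjamini-Hochberg adjustment over all 55681 probes, 0 member probes passed an adjusted p of 0.05 in any of the 3 contrasts or in the dose trend, and 0 of all probes passed either. At an unadjusted p under 0.05, 1 of the 19 member probes was higher in MS5 than in Con, probe 2 of Pde4a, and 0 were lower. Over all probes 3.9% passed in this contrast, 1.47% as higher and 2.43% as lower. In MS2 against Con 0 member probes passed at an unadjusted p under 0.05, with 4.17% of all probes passing. In MS5 against MS2 0 passed, with 3.97% of all probes passing, and for the dose slope 0 passed, with 3.97% passing. A change of over 1.5-fold together with that threshold was met by 0 of the 19 probes in each contrast, against 0.0233% of all probes in MS2 against Con, 0.228% in MS5 against Con and 0.129% in MS5 against MS2.

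Most member differences were positive and small. The mean was higher in MS5 than in Con for 16 of 19 probes, with 50.2% of all probes higher, and higher in MS2 than in Con for 15 of 19, with 49% higher. Over the 10 leading probes the median log2 difference was 0.14 in MS5 and 0.08 in MS2 against Con, with a median of 0 over all probes in both. Since both contrasts used the same control arrays and several probes read the same gene, these counts are a description.

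**Figure D1:**
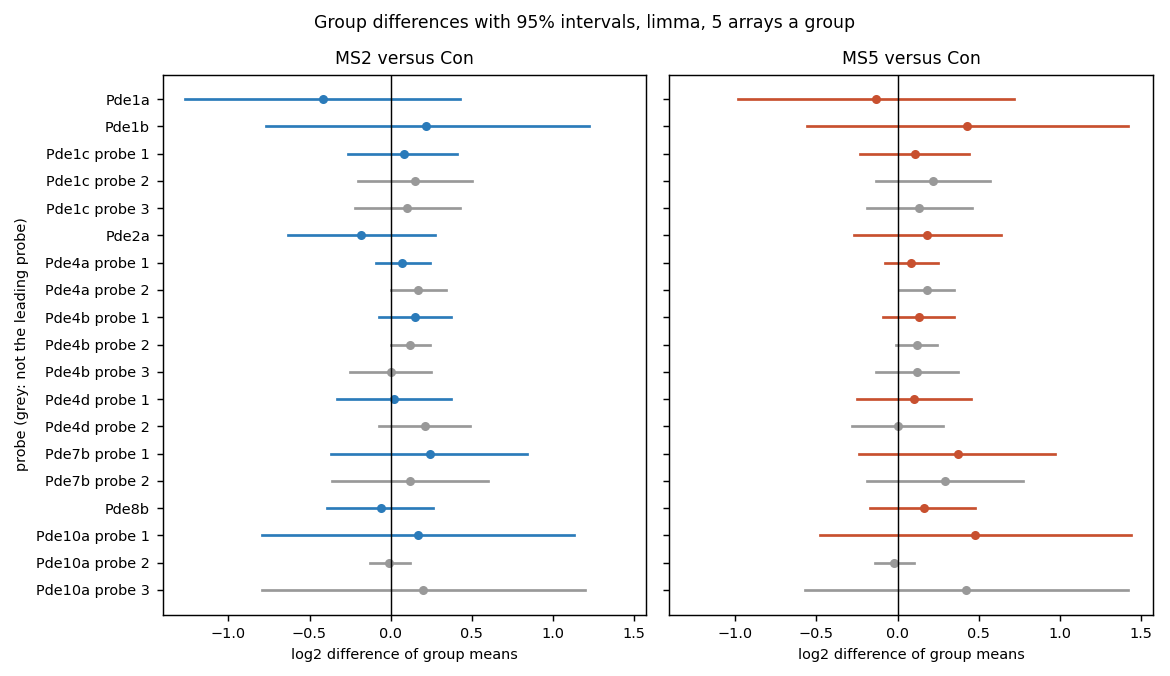
Log2 differences of group means with 95% intervals from the limma fit for the 19 member probes, MS2 against Con on the left and MS5 against Con on the right, with leading probes in colour and other probes in grey. The intervals of Pde1b, Pde10a and Pde1a were the widest, and only that of Pde4a probe 2 in MS5 lay above 0, from 0.01 to 0.35.

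Pde10a encodes the dual-substrate enzyme of striatal projection neurons, and its group means had the largest positive difference among the leading probes in MS5. Its leading probe was 12.14, 11.89, 11.83, 12.04 and 13.53 in Con. In MS2 it was 12.13, 12.25, 12.20, 13.67 and 12.03, and in MS5 14.04, 11.95, 13.23, 11.81 and 12.81. The groups overlapped fully: 1 control array, 1 MS2 array and 3 MS5 arrays were high, and the rest lay between 11.81 and 12.25 in every group. The difference was 0.48 ± 0.45 (log2, SE, n = 5 per group) for MS5, a 1.40-fold difference with a 95% interval of -0.48 to 1.44 on the log2 scale, and its adjusted p was 1 by limma. Dropping 1 array moved it from 0.16 (without MS5 replicate 8) to 0.79 (without Con replicate 19). The difference for MS2 was 0.17 ± 0.45 (95% interval -0.79 to 1.13).

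Probe 3 of Pde10a showed the same arrays as high. It was 12.01 on Con replicate 19, 12.66 on MS2 replicate 5 and 12.66, 11.34 and 11.36 on MS5 replicates 8, 12 and 14, against 10.44 to 10.94 on the other 10. Its differences were 0.42 ± 0.46 for MS5 and 0.20 ± 0.46 for MS2 (log2, SE). Probe 2, with a GC content of 15% against 43.3% and 50% for the other Pde10a probes, stayed at 5.81 to 6.14 on all arrays and was not well above background on any of them.

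Pde1b, a calcium-activated enzyme that hydrolyses both nucleotides, split the arrays in nearly the same way. It was 12.84, 12.77, 12.94, 12.95 and 14.64 in Con, and 12.91, 12.85, 14.20, 14.50 and 12.80 in MS2. In MS5 it was 14.93, 12.85, 13.66, 13.10 and 13.76. The same 5 arrays were high as for Pde10a, and MS2 replicate 4 joined them. The difference was 0.43 ± 0.46 for MS5 (95% interval -0.56 to 1.42) and 0.22 ± 0.46 for MS2 (-0.77 to 1.22), both with overlapping groups. The MS5 value was 0.12 without MS5 replicate 8 and 0.78 without Con replicate 19.

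Pde7b, a cAMP-specific enzyme insensitive to rolipram, was measured by 2 probes. Its leading probe was 6.67, 6.45, 6.59, 6.59 and 7.46 in Con. In MS2 it was 6.77, 6.63, 7.10, 7.82 and 6.62, and in MS5 8.05, 6.65, 7, 6.79 and 7.09. Again Con replicate 19, MS2 replicate 5 and MS5 replicate 8 held the highest value of their groups. The difference in MS5 was 0.37 ± 0.28 at the leading probe (95% interval -0.24 to 0.97) and 0.29 ± 0.22 at the other, and in MS2 0.24 ± 0.28 and 0.12 ± 0.22. At the leading probe the MS5 value was 0.13 without MS5 replicate 8 and 0.54 without Con replicate 19.

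**Figure D2:**
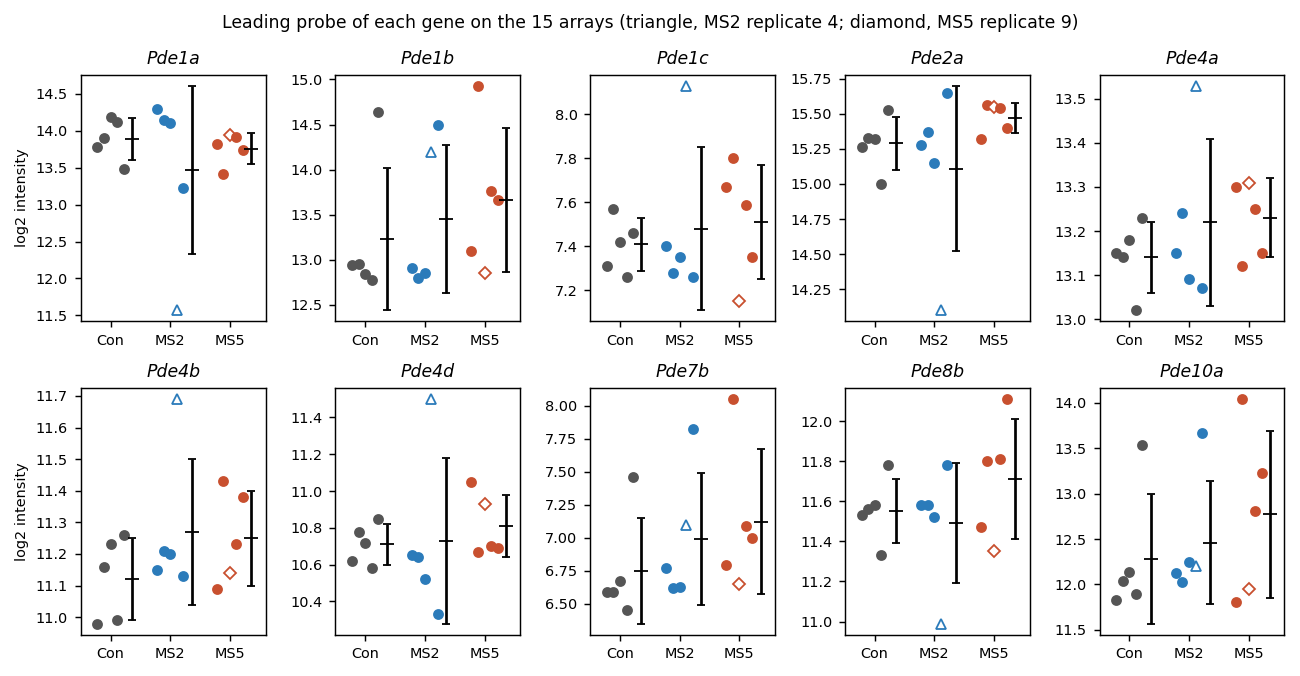
Log2 intensity of the leading probe of each gene on the 15 arrays, by group, each panel on its own axis; the bar beside each group is its mean and SD (n = 5), the open triangle is MS2 replicate 4 and the open diamond MS5 replicate 9. The groups overlap in all 10 panels, and MS2 replicate 4 lies far from the rest of its group for Pde1a, Pde1c, Pde2a, Pde4b and Pde4d.

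The 5 arrays highest in Pde10a were the 5 highest in striatal markers. For Pde1b and Pde7b 4 of the 5 highest arrays were among these, and the remaining one was MS2 replicate 4, at 14.20 and 7.10, whose striatal list mean of 10.69 was in the low range. This overlap was not particular to these genes. Pde2a and probe 2 of Pde1c also had 4 of their 5 highest arrays among these, and Pde8b had 5. Penk, the precursor of enkephalins, was 14.40 to 15.58 on Con replicate 19, MS2 replicate 5 and MS5 replicates 8, 12 and 14, and 11.51 to 12.68 on the other arrays. All 13 of the striatal markers on the array were well above background on every array and had a higher mean in MS5 than in Con, with a median difference of 0.76, yet 0 of them passed an unadjusted p under 0.05 in any contrast. Their list mean ran from 10.21 to 12.39 in Con, from 10.25 to 12.44 in MS2 and from 10.31 to 12.77 in MS5. Thus 1 array of 5 in Con, 1 of 5 in MS2 and 3 of 5 in MS5 were high.

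In a fit that held group and striatal list mean together, Pde10a differed by 0.79 ± 0.06 (SE) per unit of list mean, Pde1b by 0.78 ± 0.09 and Pde7b by 0.48 ± 0.05, all on the log2 scale, with a median of 0 over all probes. Leaving out each array in turn kept these slopes at 0.75 to 0.81, 0.73 to 0.83 and 0.42 to 0.51. The arrays fell into a low and a high cluster, so the slopes are given as a description without a test. The MS5 differences from this fit were -0.09 ± 0.12 for Pde10a, -0.13 ± 0.20 for Pde1b and 0.02 ± 0.11 for Pde7b, against 0.48, 0.43 and 0.37 without the list mean. The SE of the Pde10a difference was 0.45 without the list mean and 0.12 with it. The list was added to the fit after its values were seen.

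**Figure D3:**
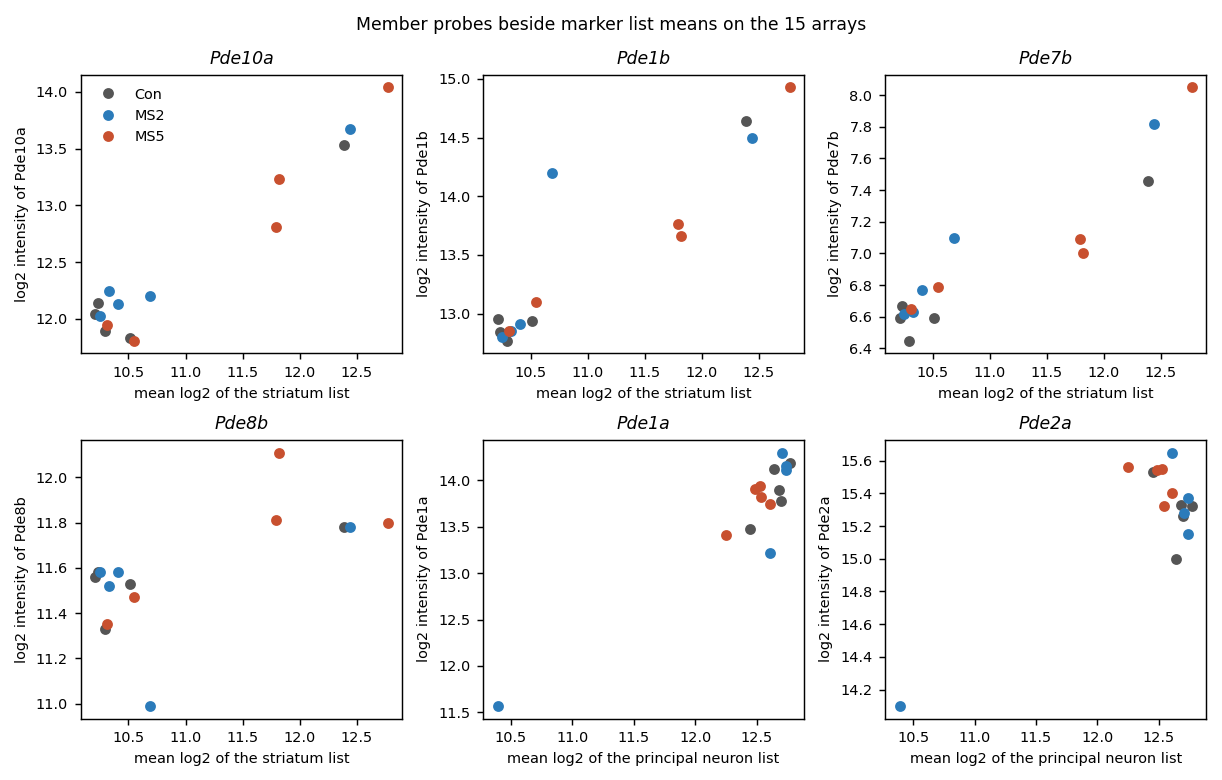
Log2 intensity of 6 leading probes on the vertical axes beside the mean log2 of the striatum list (Pde10a, Pde1b, Pde7b, Pde8b) or of the hippocampal principal neuron list (Pde1a, Pde2a) on the horizontal axes; each point is 1 of the 15 arrays, coloured by group. Arrays of all groups lie along the same path for Pde10a and Pde7b, and the single point at 10.39 on the principal neuron list is MS2 replicate 4.

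Promoter sequence is shown for these 3 genes because their levels moved together from array to array. RefSeq starts on GRCm38.p6 matched all 10 genes, with 31 entries in all. The 250 bases before the first listed start are printed for each, with GC boxes (GGGCGG or CCGCCC, either strand) in capitals.
Pde10a, chr17:8801495-8801744, plus strand: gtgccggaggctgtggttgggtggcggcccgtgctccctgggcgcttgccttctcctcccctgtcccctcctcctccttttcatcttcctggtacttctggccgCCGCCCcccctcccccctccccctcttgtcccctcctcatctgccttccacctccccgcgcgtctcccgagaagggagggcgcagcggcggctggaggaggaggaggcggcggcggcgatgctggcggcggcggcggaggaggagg
Pde1b, chr15:103502784-103503033, plus strand: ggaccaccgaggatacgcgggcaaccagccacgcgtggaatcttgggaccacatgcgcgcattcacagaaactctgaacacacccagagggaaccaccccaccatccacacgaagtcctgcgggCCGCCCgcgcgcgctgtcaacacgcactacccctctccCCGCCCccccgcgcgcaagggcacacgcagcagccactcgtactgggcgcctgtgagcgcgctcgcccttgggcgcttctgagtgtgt
Pde7b, chr10:20548329-20548578, minus strand: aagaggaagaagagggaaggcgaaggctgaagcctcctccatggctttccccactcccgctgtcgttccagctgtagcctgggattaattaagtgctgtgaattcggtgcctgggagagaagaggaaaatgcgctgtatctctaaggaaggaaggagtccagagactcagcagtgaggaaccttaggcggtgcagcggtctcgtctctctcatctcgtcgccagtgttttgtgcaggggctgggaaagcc

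These windows had a GC content of 72.8% for Pde10a, 67.2% for Pde1b and 55.2% for Pde7b, with a median of 52.4% over all 32851 windows of the same length. The Pde10a window held 1 GC box, the Pde1b window 2 and the Pde7b window 0, and 32.7% of all windows held at least 1. The windows before the other listed starts of Pde1b and Pde10a held 0. Over the 31 windows of the members, 7 held a GC box, from Pde1b, Pde2a, Pde4a, Pde8b and Pde10a. The windows of starts 3 and 5 of Pde8b overlap, so the 7 are not all separate stretches. The full cAMP response element TGACGTCA, its own reverse complement, was in 0 of the 31 windows and in 1.55% of all windows. These are matches of letters only.

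Pde1a, the PDE1 form of hippocampal projection neurons, had the only negative difference among leading probes in MS5 and the most negative in MS2. It was 14.19, 14.12, 13.78, 13.90 and 13.48 in Con. In MS2 it was 14.30, 14.11, 11.57, 13.22 and 14.15, and in MS5 13.41, 13.94, 13.74, 13.82 and 13.91. The value of 11.57 was that of MS2 replicate 4, which was also lowest in principal neuron markers, and the lowest remaining arrays, MS2 replicate 5, MS5 replicate 8 and Con replicate 19, were among those high in striatal markers. The MS2 difference was -0.42 ± 0.40 (95% interval -1.27 to 0.43) and turned to 0.05 ± 0.20 without MS2 replicate 4. The MS2 group's SD was 1.14 with that array and 0.49 without it. The MS5 difference was -0.13 ± 0.40 (-0.98 to 0.72).

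Pde2a, the cGMP-stimulated enzyme, was also set apart on MS2 replicate 4. It was 15.32, 15.00, 15.26, 15.33 and 15.53 in Con, 15.28, 15.15, 14.10, 15.65 and 15.37 in MS2, and 15.56, 15.55, 15.40, 15.32 and 15.54 in MS5. The lowest value was again MS2 replicate 4, and the MS5 arrays were the tightest group, with an SD of 0.11 against 0.19 in Con. MS5 was 0.18 ± 0.21 above Con (95% interval -0.27 to 0.64; two-sided exact permutation p = 0.0714 over 252 assignments, adjusted p = 1 by limma). MS2 was -0.18 ± 0.21 from Con, and 0.07 ± 0.11 without MS2 replicate 4. Among the other arrays, MS5 replicate 8 had the lowest principal neuron list mean, 12.25, but a high Pde2a value of 15.56. Of the 5 arrays highest in Pde2a, 4 were among the 5 highest in striatal markers. With the striatal list mean in the fit the MS5 difference of Pde2a was 0.09 ± 0.22.

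Pde1c, the PDE1 form with high affinity for both nucleotides, was read by 3 probes that ranked the arrays alike at their ends. MS2 replicate 4 was the highest of all arrays at each of them, at 8.13, 7.95 and 7.97, and MS5 replicate 9 the lowest, at 7.15, 6.92 and 7.10. The leading probe was 7.42, 7.26, 7.31, 7.57 and 7.46 in Con, 7.40, 7.35, 8.13, 7.26 and 7.28 in MS2, and 7.80, 7.15, 7.35, 7.67 and 7.59 in MS5. The groups overlapped, and the differences from Con over the 3 probes were 0.11 to 0.22 in MS5 and 0.08 to 0.15 in MS2. Without MS2 replicate 4 the MS2 differences were -0.08, -0.02 and -0.04.

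Pde8b, a cAMP-specific enzyme of high affinity, was 11.58, 11.33, 11.53, 11.56 and 11.78 in Con. It was 11.58, 11.52, 10.99, 11.78 and 11.58 in MS2, and 11.80, 11.35, 12.11, 11.47 and 11.81 in MS5. Its 5 highest arrays were the 5 arrays highest in striatal markers, and its lowest was MS2 replicate 4. Its differences from Con were 0.16 ± 0.15 in MS5 (95% interval -0.17 to 0.48) and -0.06 ± 0.15 in MS2 (-0.39 to 0.26). With the striatal list mean in the fit the MS5 difference was 0.04 ± 0.13.

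**Figure D4:**
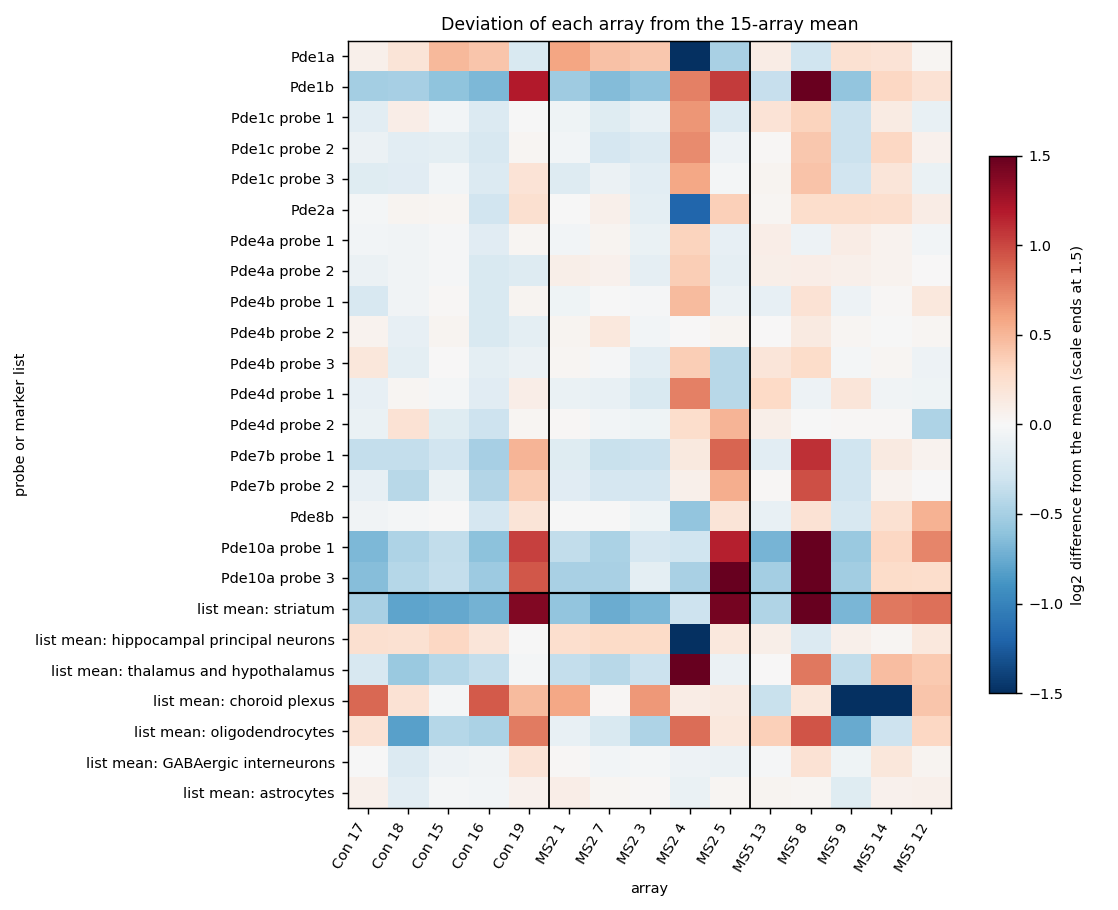
Difference of each array from the 15-array mean (log2, colour scale ending at 1.5) for the 18 member probes well above background and, below the line, for the means of 7 marker lists; columns are arrays, divided by group. Con 19, MS2 5 and MS5 8 are high for Pde1b, Pde7b, Pde10a and the striatum list, and MS2 4 is low for Pde1a, Pde2a and the principal neuron list.

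The PDE4 genes encode the cAMP-specific enzymes that rolipram blocks and that are anchored to receptor and kinase complexes. The probe that passed the unadjusted test was probe 2 of Pde4a. It was 11.63, 11.42, 11.56, 11.59 and 11.45 in Con and 11.75, 11.72, 11.65, 11.74 and 11.70 in MS5. All 5 MS5 arrays lay above all 5 Con arrays, by 0.02 at the closest pair, and 0.309% of all probes were so separated in this direction. The difference was 0.18 ± 0.08 (1.13-fold, 95% interval 0.01 to 0.35) with an unadjusted p of 0.0417 and an adjusted p of 1 by limma. The two-sided exact permutation p was 0.00794, the smallest that 5 arrays against 5 can give.

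This probe in MS2 was 11.74, 11.51, 12.02, 11.51 and 11.71, overlapping Con, with a difference of 0.17 ± 0.08 (unadjusted p = 0.0554, adjusted p = 0.97 by limma). Without MS2 replicate 4 it was 0.09 ± 0.06. For MS5 the difference was 0.15 on slide 1 alone and 0.25 on slide 2 alone, with unadjusted p of 0.0729 and 0.132 by limma. When each of the 15 arrays was dropped in turn, the unadjusted limma p ran from 0.00629 (without MS2 replicate 4) to 0.0973 (without Con replicate 16). It missed 0.05 without Con replicates 16, 17 or 19 and without MS5 replicates 8, 9, 13 or 14. It was 0.0651 with a normexp offset of 0 and 0.0658 with the scanner's processed signal. The leading Pde4a probe, which lies 3′ of it on the plus strand, was 13.18, 13.02, 13.15, 13.14 and 13.23 in Con and 13.12, 13.31, 13.15, 13.30 and 13.25 in MS5. That probe overlapped between the groups, with a difference of 0.08 ± 0.08 (unadjusted p = 0.304, adjusted p = 1 by limma).

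Pde4b, which is induced by cAMP and inflammation in many cells, had 3 probes with the same sign and size in MS5 against Con, at 0.13, 0.12 and 0.12. The leading probe was 11.23, 10.99, 10.98, 11.16 and 11.26 in Con, 11.15, 11.20, 11.69, 11.13 and 11.21 in MS2, and 11.43, 11.14, 11.38, 11.09 and 11.23 in MS5. The groups overlapped (MS5 adjusted p = 1, MS2 adjusted p = 0.97 by limma). Probe 2, at the start of the long form, was 7.17, 6.89, 7.18, 7 and 6.98 in Con, 7.17, 7.08, 7.13, 7.16 and 7.28 in MS2, and 7.26, 7.15, 7.15, 7.13 and 7.12 in MS5. Its differences were 0.12 ± 0.06 in both groups, with unadjusted p of 0.0643 for MS5 and 0.0542 for MS2 and adjusted p of 1 and 0.97 by limma. With slide as a term in the fit these were 0.13 ± 0.05 (unadjusted p = 0.0233) and 0.12 ± 0.05 (unadjusted p = 0.0347), and adjusted p were 1 and 0.9.

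The probes at the ends of Pde4b read MS2 replicate 4 differently. This rests on 1 array and on a dim probe 2, with a mean of 7.12, where the offset narrows differences. The leading probe and probe 3, at the shared end, were highest of all arrays there, at 11.69 and 9.93, whereas probe 2 at the start of the long form was 7.13, inside the range of 7.08 to 7.28 of its own group. With all arrays the MS2 difference was 0.15 ± 0.10 at the leading probe, 0.12 ± 0.06 at probe 2 and 0.00 ± 0.12 at probe 3. Without MS2 replicate 4 these differences were 0.05 ± 0.08, 0.13 ± 0.06 and -0.10 ± 0.10.

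Pde4d, the PDE4 gene with the most known splice forms, had probes that disagreed. The leading probe was 10.72, 10.58, 10.62, 10.78 and 10.85 in Con, 10.65, 10.52, 11.50, 10.33 and 10.64 in MS2, and 10.67, 10.93, 10.69, 11.05 and 10.70 in MS5. Probe 2, which ends on the stop codon, was 8.81, 8.69, 8.90, 9.21 and 9.03 in Con, 9.02, 8.93, 9.26, 9.51 and 8.96 in MS2, and 8.99, 9.02, 8.54, 9.08 and 9.01 in MS5. MS2 replicate 5, the dimmest array, was the lowest of all arrays at the leading probe and the highest at probe 2. The MS5 differences from Con were 0.10 ± 0.17 and 0.00 ± 0.13, and the MS2 differences 0.02 ± 0.17 and 0.21 ± 0.13. Without MS2 replicate 4 the MS2 difference of the leading probe was -0.17 ± 0.09 and MS5 stood 0.27 ± 0.09 above MS2 (unadjusted p = 0.0099, adjusted p = 0.716 by limma).

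**Figure D5:**
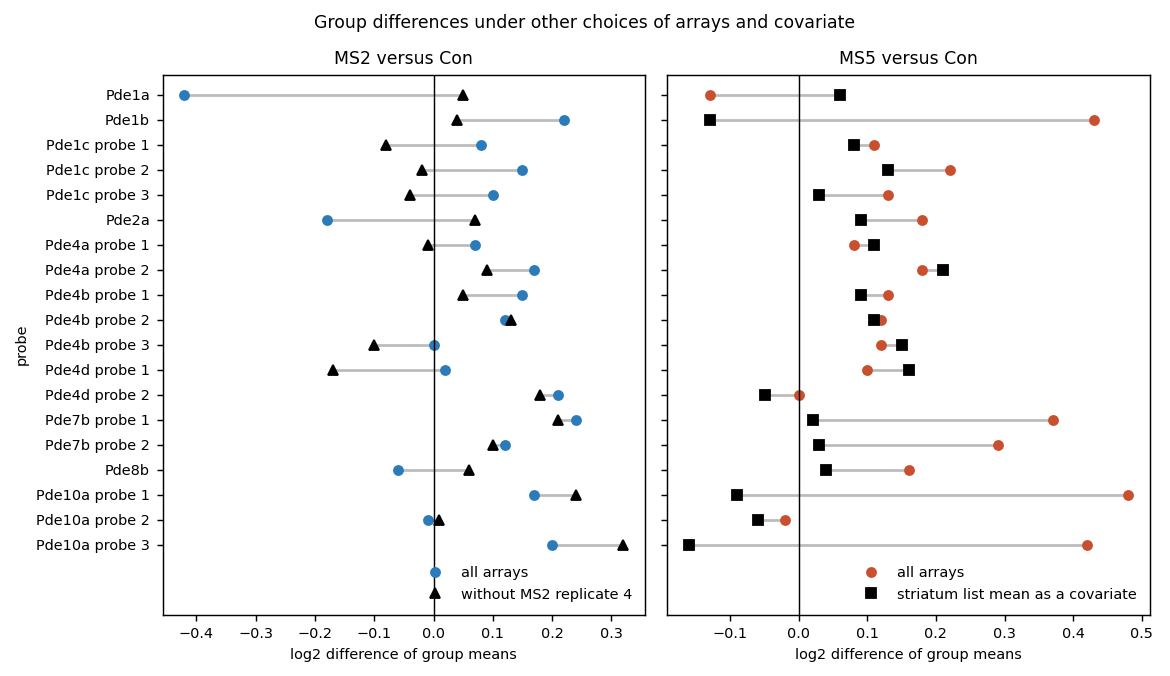
Log2 differences from Con for the 19 member probes, at left for MS2 with all arrays (circles) and without MS2 replicate 4 (triangles), at right for MS5 with all arrays (circles) and with the striatum list mean as a covariate (squares). Without MS2 replicate 4 Pde1a went from -0.42 to 0.05, and with the covariate Pde10a probe 1 went from 0.48 to -0.09.

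Between the morphine doses, which shared stress, MS5 was above MS2 at 15 of 19 member probes, with 50.7% of all probes above. The difference with the smallest p was that of Pde2a at 0.36 ± 0.21 (95% interval -0.09 to 0.82, unadjusted p = 0.107, adjusted p = 1 by limma). Without MS2 replicate 4 it was 0.11 ± 0.11. As a slope over 0, 2 and 5 mg/kg, 16 of 19 member probes were positive, with 50.3% of all probes positive. The steepest member was Pde10a at 0.10 ± 0.09 log2 units per mg/kg (95% interval -0.09 to 0.28), and the smallest p was that of Pde4a probe 2 at 0.03 ± 0.02 (unadjusted p = 0.0592, adjusted p = 1 by limma).

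The arrays lay on 2 slides. Slide 1 held 3 Con, 3 MS2 and 2 MS5 arrays, and slide 2 held 2 Con, 2 MS2 and 3 MS5 arrays. The MS5 difference from Con was 0.92 on slide 1 and -0.05 on slide 2 for Pde10a, 1.1 and -0.28 for Pde1b, and 0.80 and -0.04 for Pde7b. On slide 1 the arrays high in striatal markers were 0 of 3 in Con and 1 of 2 in MS5, and on slide 2 they were 1 of 2 in Con and 2 of 3 in MS5. For Pde1c it was 0.30 and 0.00. For Pde1a the MS2 difference was 0.23 on slide 1 and -1.40 on slide 2, which held MS2 replicates 4 and 5. Adjusted p over all probes were 0.426 or more for every member of the MS5 contrast within a slide.

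The genes most like each member were sought among 25748 other genes whose leading probe was well above background on every array, by Pearson's r of deviations from group means over the 15 arrays. For Pde10a the first was Drd1a, the striatal D1 dopamine receptor, at r = 0.98 (Spearman's rho 0.90, and r = 0.97 without the 2 farthest arrays). For Pde1b they were Xkrx, Drd2 and Zp1, all at r = 0.98, and for Pde7b Drd2 at 0.98 and Gnal at 0.97 followed an unnamed transcript at 0.99. Drd2 encodes the D2 dopamine receptor and Gnal the G protein that couples striatal receptors to adenylyl cyclase. For Pde1a they were Tcf4, Slit3 and Jph4 at 0.97 to 0.98, falling to 0.91 to 0.93 without the 2 farthest arrays, and for Pde2a Dlg2 at 0.98 fell to 0.91. For Pde4a the first was Grm8 at 0.94, for Pde4b Bend7 at 0.93, for Pde4d Fam149a at 0.97, for Pde1c Zfp385c at 0.96 and for Pde8b, after a Riken transcript, P2ry6 at 0.93. Without the 2 farthest arrays these fell to 0.85, 0.82, 0.90, 0.89 and 0.89, in the same order. MS2 replicate 4 was 1 of the 2 farthest arrays for 7 members, all but Pde1b, Pde7b and Pde10a. These values were picked as the highest of many and are a description of shared variation over the same arrays.

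Among the other 14 phosphodiesterase genes, of which 12 were well above background on every array, 2 had a leading probe higher in MS5 than in Con at an unadjusted p under 0.05 and 0 a lower one. Over the leading probes of all 36163 genes, 1.48% passed as higher and 2.75% as lower. Pde5a, the cGMP-specific enzyme, was 9.83, 9.84, 9.87, 9.92 and 10.05 in Con and 10.11, 10.13, 10.13, 10.34 and 10.38 in MS5, in ascending order. All MS5 arrays lay above all Con arrays, as 0.309% of all probes did. The difference was 0.32 ± 0.10 with an unadjusted p of 0.0051 and an adjusted p of 1 by limma. In MS2, at 9.96 to 10.53, it was 0.24 ± 0.10 (unadjusted p = 0.0256, adjusted p = 0.97), overlapping Con, and its p missed 0.05 when Con replicate 15 or 17 or MS2 replicate 5 was dropped, reaching 0.0622. With each array dropped in turn, the MS5 p stayed between 0.000322 and 0.0161, and the difference was 0.40 on slide 1 and 0.21 on slide 2 (unadjusted p = 0.14 there).

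Pde6g, the inhibitory subunit of the photoreceptor enzyme, was 7.81 to 7.94 in Con and 7.91 to 8.82 in MS5, with a difference of 0.31 ± 0.13 (unadjusted p = 0.0345, adjusted p = 1 by limma). Its p missed 0.05 when Con replicate 17, 18 or 19 was dropped, reaching 0.0655. In MS2 it was 7.78 to 8.09, with a difference of 0.00 from Con.

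The partners of these enzymes showed few differences. Of 10 adenylyl cyclases, 11 guanylyl cyclase and natriuretic receptor genes, and 20 cAMP or cGMP effectors, 0 passed an unadjusted p under 0.05 in either direction in any contrast, and medians were between -0.02 and 0.05. Only 9, 7 and 17 of these, respectively, were well above background on every array, so the result says little about the rest. One adenylyl cyclase, Adcy5, was also in the striatum list. Of 20 regulators and anchors, Calm3 was lower in MS5 than in Con, at 15.60 to 15.71 against 15.72 to 15.92. Calm3 is 1 of the genes for calmodulin, the activator of PDE1. Its difference was -0.14 ± 0.05 (unadjusted p = 0.00957, adjusted p = 1 by limma), and all MS5 arrays lay below all Con arrays, as 0.519% of all probes did. With each array dropped in turn p stayed between 0.00596 and 0.0297, and within slides the difference was -0.17 and -0.08 (unadjusted p = 0.0313 and 0.308 by limma). Arrb2, a beta-arrestin that brings PDE4 to receptors, was higher in MS2 than in Con by 0.12 ± 0.05 (unadjusted p = 0.0328, adjusted p = 0.97 by limma). Its p missed 0.05 when Con replicate 16, 17 or 19 or MS2 replicate 4, 5 or 7 was dropped, reaching 0.0826. In MS5 the Arrb2 difference from Con was -0.02 ± 0.05. Arrb1, the other beta-arrestin of the list, differed from Con by 0.03 ± 0.05 in MS2 and 0.06 ± 0.05 in MS5. In MS2 against Con, 1.65% of all leading probes passed as higher and 2.3% as lower. Between the doses, Pde6g was higher in MS5 than in MS2 by 0.31 ± 0.13 the Arrb2 difference was -0.14 ± 0.05 and the Calm3 difference -0.10 ± 0.05 (unadjusted p = 0.0361, 0.0179 and 0.0454, adjusted p = 1 by limma), where 1.76% of all leading probes passed as higher and 2.13% as lower. Dropping 1 array took Pde6g past 0.05 for MS2 replicates 1, 3 and 5 and MS5 replicates 9 and 13 (up to 0.074), and Arrb2 for MS5 replicate 12 (0.0505). Calm3 was past it for 8 of the 15 arrays, Con replicates 15 and 17, MS2 replicates 3, 5 and 7 and MS5 replicates 8, 9 and 14 (up to 0.117), and with slide as a term (0.0623). Camk2d, a calcium and calmodulin kinase subunit named here after its values were seen, had all MS5 arrays above all Con arrays, as 0.309% of all probes did, with a difference of 0.40 ± 0.25 that missed the threshold (unadjusted p = 0.127, adjusted p = 1 by limma).

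Other marker lists were read beside the members. Choroid plexus markers were lower in MS5 than in Con at 14 of 16 genes at an unadjusted p under 0.05, with list means of 8.67 on MS5 replicate 14 and 9.54 on MS5 replicate 9 against 10.86 to 12.12 elsewhere. The thalamus and hypothalamus list was 10.17 on MS2 replicate 4, 9.04 to 9.44 on MS5 replicates 8, 12 and 14, and 8.10 to 8.66 on the rest, and 4 of its 17 genes were higher in MS5 than in Con at that threshold. Oligodendrocyte markers were 10.80 to 12.39 in Con, 11.15 to 12.45 in MS2 and 10.86 to 12.56 in MS5, with 0 of 13 passing. The GABAergic interneuron, astrocyte and microglia lists spanned at most 12.30 to 12.72, 13.51 to 13.78 and 11.30 to 11.73 over all arrays, with 0 genes passing against Con. The endothelium list had 2 of 9 genes lower in MS5 and 1 of 9 in MS2, and the blood list 1 of 8 lower in MS5. Against Con, 1.48% of all leading probes passed as higher and 2.75% as lower in MS5, and 2.3% as lower in MS2. Several of the choroid plexus genes, and Avp and Trh, are among those the paper lists as changed in these arrays, so their counts are a description. The part of these lists in the member differences was not tested.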

How the data were processed

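Members and gene lists were chosen with earlier results of these data known. Hippocampal mRNA was measured on 15 Agilent arrays (5 Con, 5 MS2, 5 MS5). The authors deposited scanner intensity per spot, from Feature Extraction, and a table of log2 values made by normexp background correction followed by quantile normalization. Own normexp (offset 50) and quantile normalization of the intensity files matched that log2 table within 5e-09. Arrays held 62976 spots, of which 3671 were controls, and 0 non-control spots were saturated. Probe coordinates are those of the scanner files (mm9). The deposited log2 table was used for all comparisons. R 4.3.3 with limma 3.58.1 (lmFit, eBayes) fitted 3 groups together over 55681 probes, with Benjamini-Hochberg adjustment over all probes. For single probes a permutation test, exact and two-sided, ran over 252 assignments. Every member probe was named. Of the pathway lists, genes with a leading probe at an unadjusted p under 0.05 against Con were named. Of the marker lists, up to 3 genes were named by size of difference. The fits were tested on simulated data with independent noise at each probe and array, which lacked the array-wide shifts described above. The number of arrays limits the precision. The miR arrays were not used here.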

Additional observations from a re-analysis of the deposited data

Results flagged for a closer look

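In each group of 5 arrays, the highest and lowest values of the 10 leading probes were set against Dixon's test, which by chance picks about 1 group in 20. Of 30 groups, 7 (23.3%) held an array that stood apart. Con replicate 19 stood apart for Pde1b, at 14.64 with the next array at 12.95, for Pde10a, at 13.53 with the next at 12.14, and for Pde7b, at 7.46 with the next at 6.67. MS2 replicate 5 stood apart for Pde10a, at 13.67 with the next at 12.25. MS2 replicate 4 stood apart for Pde1c, at 8.13 with the next at 7.40, for Pde4b, at 11.69 with the next at 11.21, and for Pde4d, at 11.50 with the next at 10.65. The 10 genes share the same 15 arrays, so these are not independent of each other.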

How the results depend on the processing

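The report counts 1 member probe at an unadjusted p under 0.05 in MS5 against Con and 0 in MS2 against Con, in MS5 against MS2 and for the dose slope. For MS5 against Con the count was 0 with a normexp offset of 0 and with all probes of a gene averaged, 2 with slide as a term, 8 on slide 1 alone and 3 without both MS2 replicate 4 and MS5 replicate 9, where 4.02%, 4.15%, 4.4%, 7.79% and 5.71% of all features passed. For MS2 against Con it was 1 with the processed signal, with array weights, with slide as a term and with the striatum list, and 3 on slide 2 alone, where 3.31% to 7.49% of all probes passed in the first 4 of these and 5.26% in the last. For MS5 against MS2 it was 9 on slide 1 alone, 2 on slide 2 alone and 5 without both arrays (8.3%, 6.61% and 5.84%). For the dose slope it was 1 with array weights, with slide as a term and with the striatum list, 6 on slide 1 alone and 5 without both arrays (6.47%, 4.34%, 5.86%, 7.78% and 5.88%). Leaving out 1 array gave 0 to 2 in each contrast and 0 to 1 for the slope, with 2 reached without Con replicate 15 in both contrasts with Con, without MS2 replicate 3 in MS2 against Con and without MS2 replicate 4 in MS5 against MS2. The smallest adjusted p of any member in any of these fits was 0.233. Signs turned at leading probes that had passed no test. Against Con in MS5, slide 2 alone gave 0.07 for Pde1a, -0.28 for Pde1b, -0.04 for Pde7b and -0.05 for Pde10a, and the striatum list 0.06 for Pde1a, -0.13 for Pde1b and -0.09 for Pde10a. In MS2, array weights gave 0.13 for Pde1a, -0.17 for Pde1b, -0.02 for Pde1c, -0.07 for Pde4d and 0 for Pde8b. Slide 1 alone gave 0.23, -0.05, -0.09, -0.10 and 0.01 for the same genes, and the processed signal 0 for Pde4d. Without both arrays the MS2 differences were 0.05 for Pde1a, -0.08 for Pde1c, 0.07 for Pde2a, -0.01 for Pde4a, -0.17 for Pde4d and 0.06 for Pde8b. Leaving out 1 array moved the MS2 difference from -0.63 to 0.05 for Pde1a, -0.04 to 0.58 for Pde1b, -0.08 to 0.14 for Pde1c, -0.32 to 0.07 for Pde2a, -0.01 to 0.11 for Pde4a, -0.17 to 0.12 for Pde4d, -0.13 to 0.06 for Pde8b and -0.13 to 0.48 for Pde10a. The striatum list and the joint removal of 2 arrays were chosen after seeing the data. The sample labels do not give the litter, so no analysis paired by litter was possible. The paper describes the controls as littermates of treated pups, and all pups were treated as independent. The cause of these shifts was not tested.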
